A study of Homo sapiens with 34 samples.

Results

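The first 3 Mb of the short arms of 17 human chromosomes, 1 to 12 and 16 to 20, were examined for peaks of methylated histone H3 lysine 9. A peak was counted there when its midpoint lay below position 3000000 on hg38. These ends held 13549 of the 1034291 peaks in all 34 lists, against 836416 in the rest of the same chromosomes. They make up 51 Mb, and the rest 2401 Mb. Just inside the border, between 2.9 and 3.0 Mb, lay 422 peaks, and just outside it, between 3.0 and 3.1 Mb, 358.

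The libraries were made by CUT&Tag, which uses an antibody to tether a transposase where a mark lies. The labels call the antibody rabbit anti-H3K9me and do not give the degree of methylation. PC3 DM cells come from a prostatic adenocarcinoma and COLO320 DM cells from a colorectal adenocarcinoma, and both carry extrachromosomal DNA. Every library came from 50000 nuclei of cells collected 3 days after transfection with 700 ng of an sgRNA plasmid, by lipofectamine LTX in PC3 DM and lipofectamine 3000 in COLO320 DM. The groups of PC3 DM were the vector (2 libraries), ecSE1, ecSE2 and ecSE6 (3 each), ecSE7 (2) and the combination ecSEcombo (3). Those of COLO320 DM were the vector, ecSE1, ecSE2, ecSE3, ecSE4 and ecSEcombo, with 3 libraries each. The effector that the guides direct, and the members of the combination, are not given in the sources used here. All 34 libraries, the vector ones included, came from transfected cultures, so the data hold no library of an untransfected culture.

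Methylated lysine 9 of histone H3 is a mark of heterochromatin. Chromatin next to telomeres is partly heterochromatic, yet many human chromosome ends are rich in genes and in G and C. Clusters of zinc finger genes, which encode DNA-binding repressors of transposable elements, are known to carry the trimethylated form over the 3′ parts of the genes. Long neuronal genes in gene-poor regions often lie in repressed chromatin in cells that do not use them.

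Sequences are shown for 5 genes of the ends on which the results turn: 3 zinc finger genes with a peak in nearly all lists, and the 2 neural adhesion genes of chromosome 3 that differed between the lines. Each is the 250 bases upstream of the annotated start, on the plus strand, from RefSeq on GRCh38.p14. Capitals mark 3 motifs on either strand: GGGCGG, known as a binding site of Sp1 proteins, the box CCAAT of many promoters, and the telomere repeat unit TTAGGG. The search for CCAAT was added after the sequences had been seen. The coordinates in order are chr4:53071-53320, chr4:337564-337813, chr19:2841225-2841474, chr3:196513-196762 and chr3:1092774-1093023.
ZNF595: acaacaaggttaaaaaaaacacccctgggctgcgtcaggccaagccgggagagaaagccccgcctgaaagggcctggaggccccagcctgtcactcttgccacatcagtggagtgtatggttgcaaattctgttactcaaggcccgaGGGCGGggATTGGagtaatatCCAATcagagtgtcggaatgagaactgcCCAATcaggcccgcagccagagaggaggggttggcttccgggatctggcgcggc
ZNF141: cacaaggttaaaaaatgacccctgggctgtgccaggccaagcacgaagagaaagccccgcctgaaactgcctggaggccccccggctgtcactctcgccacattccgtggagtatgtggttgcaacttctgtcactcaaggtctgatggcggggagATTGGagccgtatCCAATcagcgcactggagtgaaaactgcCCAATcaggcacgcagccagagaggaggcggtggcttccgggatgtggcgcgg
ZNF555: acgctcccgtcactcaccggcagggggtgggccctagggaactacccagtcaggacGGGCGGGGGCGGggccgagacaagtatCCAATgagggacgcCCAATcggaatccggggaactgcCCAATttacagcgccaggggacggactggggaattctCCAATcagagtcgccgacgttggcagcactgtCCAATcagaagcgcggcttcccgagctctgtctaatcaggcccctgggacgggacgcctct
CHL1: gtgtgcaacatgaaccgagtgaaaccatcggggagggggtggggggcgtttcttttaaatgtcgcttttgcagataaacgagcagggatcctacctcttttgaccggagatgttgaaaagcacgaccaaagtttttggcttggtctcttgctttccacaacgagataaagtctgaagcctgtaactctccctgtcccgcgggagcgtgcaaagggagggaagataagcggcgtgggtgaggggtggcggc
CNTN6: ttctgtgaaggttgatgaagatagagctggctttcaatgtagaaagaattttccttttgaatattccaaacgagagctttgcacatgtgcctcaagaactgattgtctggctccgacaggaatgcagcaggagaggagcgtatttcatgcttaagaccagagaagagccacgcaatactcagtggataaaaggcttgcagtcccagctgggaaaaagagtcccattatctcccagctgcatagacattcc

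The windows of the zinc finger genes ZNF595 and ZNF141 shared a run of 20 bases, and each held 3 CCAAT matches, while that of ZNF555 held 5. Those of CHL1 and CNTN6 held none of the motifs. Among 35116 such windows of the genome CCAAT (on the other strand ATTGG) was found in 32.0%, and in 25.3% of the 1158 windows of the ends. The motif GGGCGG, which reads CCGCCC on the other strand, was found in 42.6% of all windows and 57.7% of those of the ends. For TTAGGG, whose other strand reads CCCTAA, the shares were 7.94% and 4.84%. Peaks hardly touched these windows. No list of either line had a peak in those of ZNF595, ZNF141 and CNTN6, and 1 COLO320 DM list had one in each of the other two. Over windows from 250 bases before to 50 after the start, 0.221% ± 0.186 of the 1158 at the ends held a peak per PC3 DM library (SD, n = 16) and 0.154% ± 0.147 per COLO320 DM library (SD, n = 18). In the rest of the same chromosomes the shares were 0.385% and 0.241%. The peaks described below therefore lie mostly inside genes or between them, and few lie at starts. Such windows are short and cover little of the ends, and the share expected from position alone was not worked out.

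The number of peaks per list ran from 10288 to 102290 in PC3 DM (median 26527) and from 9385 to 125214 in COLO320 DM (median 18271), and read totals are not used here, so depth is unknown. Comparisons between lines therefore also used equal list length, keeping from every list its 9385 peaks with the smallest q-values. PC3 DM vector replicate 1 and ecSE6 replicate 1 stood apart, with maximum folds of 15.3 and 13.3 where the median of the line was 44.0. The lists of COLO320 DM ecSE1 replicate 2 and PC3 DM ecSEcombo replicate 1 were the longest. No pair of lists shared more than 0.208% identical peaks. The labels do not tie replicates to separate cultures. All p-values here therefore describe spread among libraries that may be purely technical.

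Taken over all 17, the ends had fewer peaks per Mb than the rest of the same chromosomes. The number of end peaks in PC3 DM lists was 128 at the lowest, 347.5 at the median and 1440 at the highest, 1.33% ± 0.116 of a list (SD, n = 16). In COLO320 DM these were 105, 252 and 1377 peaks, 1.34% ± 0.143 (SD, n = 18). The ranges of the lines overlapped. Density was 9.34 peaks per Mb in the ends and 12.1 in the rest on average in PC3 DM, and 6.45 and 8.62 in COLO320 DM. The log2 ratio of end to rest was -0.37 ± 0.13 in PC3 DM, below 0 in 16 of 16 libraries (exact sign-flip permutation test, two-sided, p = 3.05e-05, the smallest possible). In COLO320 DM it was -0.38 ± 0.16, below 0 in 18 of 18 (sign-flip permutation test, two-sided, p = 2.00e-05). Single chromosomes weighed heavily on both means: without chromosome 3 the mean in PC3 DM was -0.66, and without chromosome 4 the mean in COLO320 DM was -0.61. Within 1 Mb of the tip the COLO320 DM ratio was above 0, at 0.17.

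The ends were rich in genes, and a smaller share of those genes held a peak than elsewhere. They hold 819 protein-coding genes, 16.1 per Mb against 6.69 in the rest. Of these, 12.5% ± 5.08 held a peak per PC3 DM list as deposited and 10.6% ± 4.62 per COLO320 DM list, where a gene is its body and 2 kb on each side. The shares for all other protein-coding genes of the autosomes and X were 25.7% and 16.8%. These shares were not adjusted for gene length, and a longer gene has more room for a peak. In all, 457 of the 819 genes had a peak in at least 1 of the 34 lists, 362 had one in none, and 7 had one in every list.

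The end of chromosome 3 departed from the others in PC3 DM. It is gene-poor, with 5 protein-coding genes, among them the neural adhesion genes CHL1, CNTN6 and CNTN4. At equal list length it held 20, 39.5 and 53 peaks (lowest, median and highest) in PC3 DM lists and 2, 6 and 11 in COLO320 DM lists. The lines did not overlap at this end, and it was the only one of the 17 where they did not. The log2 ratio of end to rest was 1.94 ± 0.38 in PC3 DM and -1.31 ± 0.61 in COLO320 DM. The difference of 3.24 (SE 0.17), a 9.46-fold difference in relative density, passed the test (permutation test between lines, adjusted p = 5.67e-05 over 17 ends). In the lists as deposited the PC3 DM end held 39.8 peaks per Mb against 13.3 in the rest of the chromosome. It was the densest of 66 windows of 3 Mb on chromosome 3 in that line, and ranked 47 in COLO320 DM.

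The end of chromosome 4, which carries a cluster of zinc finger genes at its tip, was dense in both lines. At equal list length it held 14, 24.5 and 34 peaks in PC3 DM lists and 32, 40 and 52 in COLO320 DM lists. Most COLO320 DM lists lay above most PC3 DM lists, with some overlap. The log2 ratio was 1.17 ± 0.37 in PC3 DM and 1.59 ± 0.19 in COLO320 DM, a difference of -0.42 (SE 0.10, permutation test between lines, adjusted p = 0.000538). In COLO320 DM this window ranked 3 of 63 on the chromosome, and in PC3 DM 17.

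Of the other ends, most were sparse. In the lists as deposited the ends of chromosomes 3, 4, 18 and 20 were denser than the rest of their chromosome in PC3 DM and 12 were sparser, while in COLO320 DM the ends of chromosomes 4 and 9 were denser and 13 sparser (sign-flip permutation tests, adjusted over 34). The PC3 DM call on chromosome 4 came with a ratio above 0 in 10 of 16 libraries. Chromosome 18 stood at a log2 ratio of 0.39 ± 0.21 in PC3 DM, above 0 in 16 of 16 libraries, and at 0.14 ± 0.39 in COLO320 DM. Chromosome 9 stood at 0.61 ± 0.37 in COLO320 DM, above 0 in 17 of 18, and at -0.23 ± 0.43 in PC3 DM. That COLO320 DM call was lost at equal list length, with 0.01 ± 0.66 (sign-flip permutation test, adjusted p = 0.965), as were the calls of a sparser end there on chromosomes 16 (-0.12 ± 0.47) and 20 (-0.21 ± 0.60). Other calls were gained at equal list length. Chromosome 11 became a denser end in COLO320 DM (0.54 ± 0.37, sign-flip permutation test, adjusted p = 9.88e-05). Chromosome 6 became a sparser end in PC3 DM (-0.41 ± 0.70, exact sign-flip permutation test, adjusted p = 0.0245). The lowest values on the lists as deposited belonged to chromosomes 19 (-1.79 ± 0.45) and 17 (-1.63 ± 0.66) in PC3 DM and to chromosomes 8 (-1.51 ± 0.55) and 1 (-1.39 ± 0.53) in COLO320 DM. In the order of PC3 DM means, 3, 18, 4, 20, 6, 9, 5, 2, 10, 1, 7, 16, 11, 12, 8, 17 and 19, the mean difference between neighbours passed the test at 4 steps: 3 above 18, 20 above 6, 9 above 5 and 12 above 8. The COLO320 DM order was 4, 9, 11, 18, 7, 20, 6, 2, 16, 10, 12, 19, 3, 5, 17, 1 and 8, where it passed at 4 steps: 4 above 9, 9 above 11, 18 above 7 and 17 above 1 (sign-flip permutation tests, adjusted over 32). At 5 of these 8 steps the mean difference was smaller than its SD over libraries; only 3 above 18 and 20 above 6 in PC3 DM and 18 above 7 in COLO320 DM exceeded it. The other neighbours in either order did not pass.

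At equal list length 13 of the 17 ends differed between the lines. Those of chromosomes 1, 3, 8 and 20 were relatively denser in PC3 DM, and those of chromosomes 4, 7, 9, 10, 11, 12, 16, 17 and 19 in COLO320 DM. Chromosomes 2, 5, 6 and 18 gave no call. With ends of 1 Mb the difference turned to -0.29 on chromosome 1 and -0.51 on chromosome 8, and 1 end was called higher in PC3 DM. On the lists as deposited it was -0.03 on chromosome 8. At equal list length the end of chromosome 8 held a mean of 3.1 peaks in PC3 DM and 3.3 in COLO320 DM. For chromosome 10 these means were 4.4 and 4.1. At both ends the line with the higher ratio thus held slightly fewer end peaks on average. The ratio also depends on the density of the rest of the chromosome. After chromosome 3 the largest differences were at chromosome 11, with log2 ratios of -0.81 ± 0.53 in PC3 DM and 0.54 ± 0.37 in COLO320 DM (difference -1.35, SE 0.16), and at chromosome 19, with -1.84 ± 0.58 and -0.52 ± 0.39 (difference -1.32, SE 0.17). Both had a permutation adjusted p of 5.67e-05. Chromosome 20 went the other way, with 0.78 ± 0.45 in PC3 DM and -0.21 ± 0.60 in COLO320 DM (difference 0.99, SE 0.18, permutation adjusted p = 6.80e-05). Pooled over the 17 ends the ratio was -0.21 ± 0.15 in PC3 DM and -0.33 ± 0.16 in COLO320 DM, a difference of 0.12 (permutation test, p = 0.0371). That pooled call was lost when any 1 of 11 libraries was left out, was lost on the lists as deposited (0.00088), and turned to -0.35 without chromosome 3. The per-chromosome plot shows both lines at each end.

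**Figure D1:**
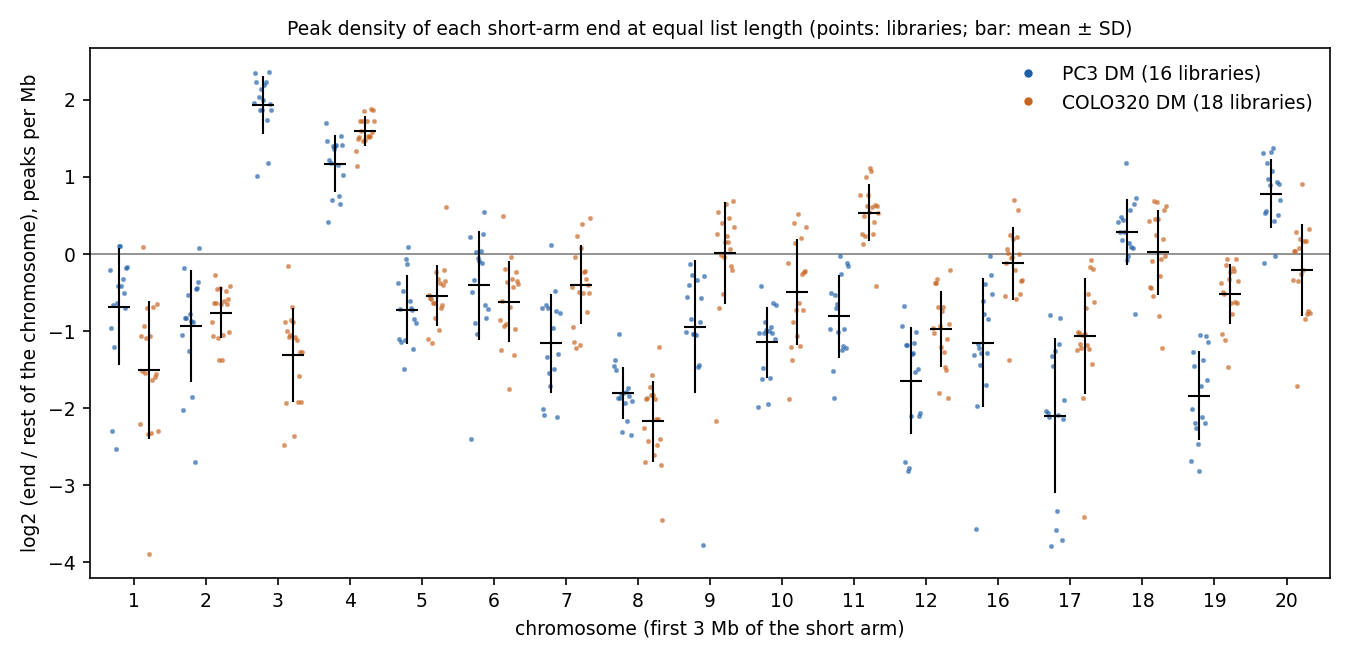
Log2 ratio of peak density between the first 3 Mb and the rest of each chromosome at equal list length, by chromosome (x axis). Points are libraries, bars mean ± SD, 16 PC3 DM and 18 COLO320 DM libraries; on chromosome 3 the PC3 DM mean is 1.94 and the COLO320 DM mean -1.31, with no overlap.

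Within the ends of COLO320 DM the peaks were denser towards the tip, and in PC3 DM the direction depended on the list length. In COLO320 DM the mean was 8.90 peaks per Mb in the first Mb and 5.15 in the Mb from 2 to 3, a log2 ratio of 0.96 ± 0.27 that was above 0 in 18 of 18 libraries (sign-flip permutation test, p = 2.00e-05). In PC3 DM these were 8.91 and 9.43 peaks per Mb, a log2 ratio of -0.04 ± 0.25 (exact sign-flip permutation test, p = 0.544). Much of the COLO320 DM rise sat at the tip of chromosome 4: without that chromosome its ratio was 0.44, and that of PC3 DM was -0.34. At equal list length the PC3 DM ratio turned to 0.30 and passed the test (exact sign-flip permutation test, p = 0.00198). The difference between the lines was not tested.

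Counts by 0.5 Mb step are from the lists as deposited, whose median length was greater in PC3 DM. On chromosome 4 the first 0.5 Mb held 27.1 ± 12.2 peaks in PC3 DM (from 14 to 65, n = 16) and 46.4 ± 11.2 in COLO320 DM (from 28 to 74, n = 18). The next 0.5 Mb held 2.44 ± 1.90 and 3.39 ± 2.38, so the dense stretch ended with the zinc finger cluster. On chromosome 3 the picture was different. Each 0.5 Mb step of the first 3 Mb held a mean of 17.4 to 22.8 peaks in PC3 DM and 2.61 to 5.78 in COLO320 DM. Density in PC3 DM continued past the border, with 13.8 ± 11.6 and 16.8 ± 15.5 peaks in the steps from 3.0 and 3.5 Mb, where COLO320 DM had 9.28 ± 6.68 and 8.50 ± 8.30. On chromosome 18 the PC3 DM peaks gathered between 1.0 and 2.0 Mb, with 17.0 ± 12.9 and 11.2 ± 9.33 per step against 3.61 ± 4.27 and 3.89 ± 4.35 in COLO320 DM. At equal list length the whole end of chromosome 18 gave no call between the lines (difference 0.27, permutation adjusted p = 0.160). On chromosome 9 the stretch from 1.0 to 2.0 Mb was denser in COLO320 DM, with 10.2 ± 8.03 and 8.72 ± 8.48 per step against 5.31 ± 4.17 and 4.00 ± 3.22.

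**Figure D2:**
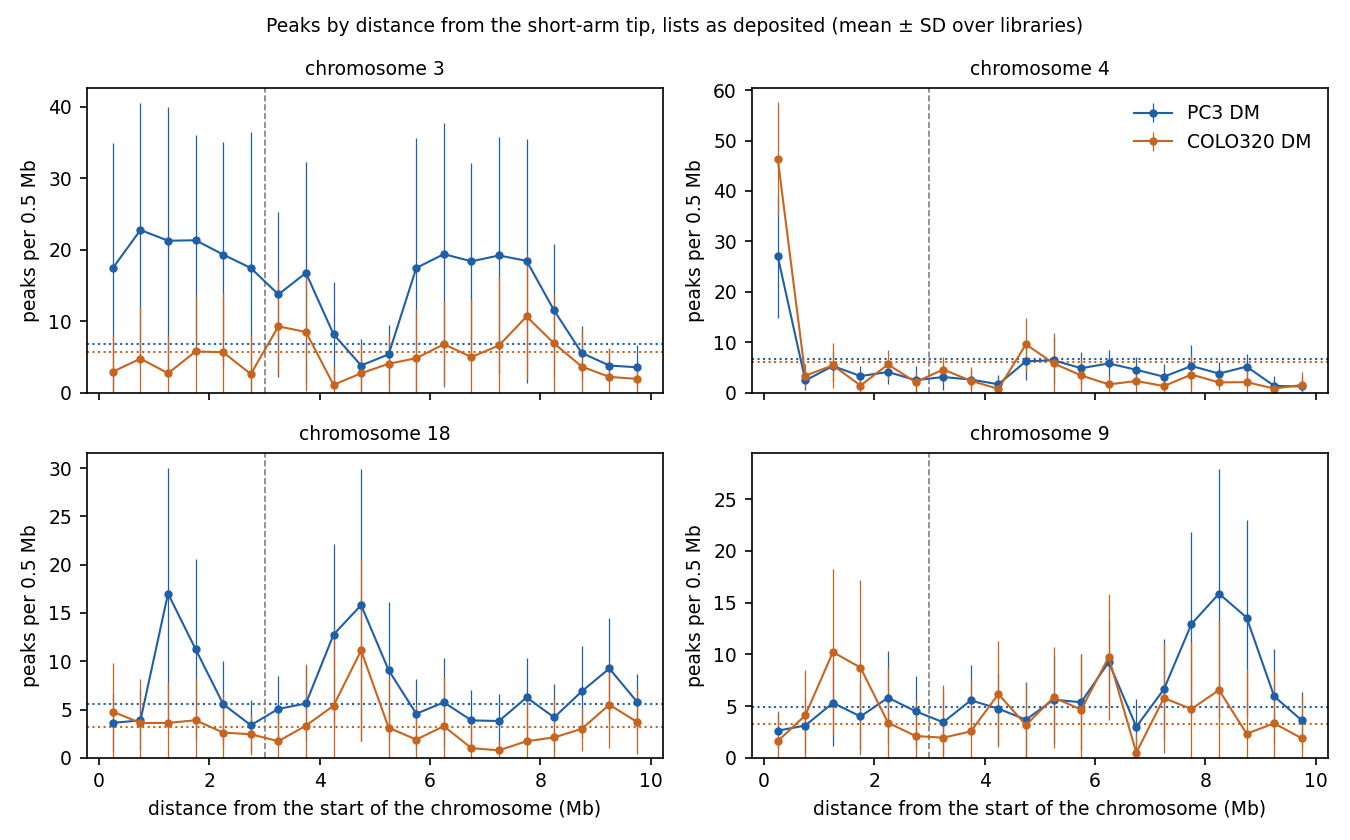
Peaks per 0.5 Mb by distance from the short-arm tip on chromosomes 3, 4, 18 and 9, lists as deposited. Points with bars are mean ± SD over 16 PC3 DM and 18 COLO320 DM libraries, dotted lines the mean of the whole chromosome, and the dashed line marks 3 Mb. The first step of chromosome 4 holds a mean of 27.1 peaks in PC3 DM and 46.4 in COLO320 DM, and PC3 DM stays above COLO320 DM over the whole end of chromosome 3.

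Over all 17 ends together the length of end peaks did not pass the test against other peaks of the same chromosomes. Median length was 262 bp in the ends and 265 bp in the rest in PC3 DM (exact sign-flip permutation test, adjusted p = 0.110), and 345 bp in both in COLO320 DM (sign-flip permutation test, adjusted p = 0.917). Without chromosome 4 the end peaks were shorter, with differences of -10.8 bp in COLO320 DM (sign-flip permutation p = 0.00101) and -5.03 bp in PC3 DM (exact sign-flip permutation p = 0.0104). Without chromosome 3 the PC3 DM difference was -3.31 bp (exact sign-flip permutation p = 0.0311). The median fold, the authors' ratio of a summit to its local background, was 5.10 against 5.50 in COLO320 DM (difference -0.39, lower in 16 of 18 libraries, sign-flip permutation test, adjusted p = 0.00024) and 5.28 against 5.31 in PC3 DM (adjusted p = 0.502, exact sign-flip permutation test). At equal list length the PC3 DM difference was -0.229 and passed (exact sign-flip permutation test, adjusted p = 0.000366). Ranked by q-value with the strongest peak at 0%, the median end peak stood at 45.0% of the list in PC3 DM against 49.7% for the rest (exact sign-flip permutation test, adjusted p = 0.00137). That call was lost at equal list length (-1.69 points, adjusted p = 0.0597, exact sign-flip permutation test) and without chromosome 3 (-1.91 points). In COLO320 DM it stood at 47.4% against 49.9% (sign-flip permutation test, adjusted p = 0.0107), a difference that turned to 3.07 points the other way without chromosome 4.

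Sites shared by many libraries were concentrated at the tip of chromosome 4. Of 4747 bins of 5 kb with a peak in any list as deposited, 74 had one in at least 17 of the 34 lists, 1.56% against 1.60% of such bins in the whole genome, so recurrence as such was not more frequent than elsewhere. Of the 74, 29 lay on chromosome 4, 8 on chromosome 11, 7 on chromosome 19 and 5 on chromosome 16. The end of chromosome 3 had the most bins with a peak, 581 of 600, and none recurred in 17 lists, nor did any on chromosomes 9 and 17. With 16 PC3 DM lists, a bin marked in that line alone could not reach 17, whereas a bin marked in COLO320 DM alone could. On chromosome 3, whose end was dense in PC3 DM alone, bins marked only in that line could thus not count as recurrent. The part of this threshold in the absence of recurrent bins there was not tested. In 3 bins a peak was present in all 34 lists: chr4:85001-90000 in ZNF595, chr4:250001-255000 in the pseudogene ZNF876P and chr4:440001-445000 in ZNF721 and the pseudogene ABCA11P. At the ZNF721 bin the peaks covered 798 ± 542 bp in PC3 DM and 2238 ± 383 bp in COLO320 DM. At the ZNF595 bin they covered 1057 ± 531 bp and 1677 ± 422 bp, and at ZNF876P 742 ± 280 bp and 1202 ± 220 bp. Covered length was not adjusted for the greater length of COLO320 DM peaks in general.

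The 74 bins formed 57 separate stretches, 11 of them of 2 or more adjacent bins. The longest, chr4:85001-105000 and chr4:150001-170000, were 20 kb each. The first began in the 3′ end of ZNF595 and ran on past that gene, over LOC105379580, and the second lay in ZNF718. Covered length in the first was 250, 1514 and 3628 bp (lowest, median, highest) in PC3 DM and 2320, 3965 and 5257 bp in COLO320 DM, with overlap. The means were 1473 ± 865 bp and 3836 ± 841 bp. In the second the mean was 1141 ± 558 bp in PC3 DM and 2884 ± 361 bp in COLO320 DM. Outside chromosome 4 the most frequent sites were chr19:2850001-2855000 in ZNF555, with a peak in 33 lists, and chr16:835001-840000 in LOC124900586 and chr1:2645001-2650000 in TTC34, each in 31. Those in ZNF77 on chromosome 19 and ZNF596 on chromosome 8 followed with 30 each. Zinc finger genes thus accounted for 3 of these 5.

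Among the fixed gene lists, the zinc finger genes had peaks most often. Of their 12 members in the ends, 77.1% ± 9.86 held a peak per PC3 DM list and 82.9% ± 9.25 per COLO320 DM list, from 58.3% to 91.7% in either line, against the 12.5% and 10.6% of all genes of the ends. ZNF595, ZNF718, ZNF141, ZNF721 and ZNF555 had one in all 34 lists, as did POLN, which encodes a DNA polymerase, and LOC124900586. Covered length over ZNF141 was 495, 1563 and 3094 bp (lowest, median, highest) in PC3 DM and 1642, 3601 and 5066 bp in COLO320 DM. Over ZNF721 it was 321, 1652 and 4395 bp in PC3 DM and 2764, 4338 and 5629 bp in COLO320 DM. Values were mostly higher in COLO320 DM, with overlap between the lines at both genes. Peaks were longer in COLO320 DM in the rest of the same chromosomes too, with a median of 345 bp against 265 bp in PC3 DM. Covered length was not adjusted for this. The position of peaks along the genes varied: the median peak lay 91.8% of the way from the annotated start to the 3′ end in ZNF595, 90.1% in ZNF77 and 86.1% in ZNF554, but 73.4% in ZNF141, 58.0% in ZNF555 and 46.8% in ZNF718. Exon positions are not used here. Presence could be compared between the lines for 5 of the 12 genes, since the rest had a peak in nearly all or nearly no lists, and 0 were called, with a median difference of -16.7 percentage points (PC3 DM minus COLO320 DM). In the genome 13.3% of tested genes were called, so 0 of 5 shows little.

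The neuronal adhesion and synapse genes followed, with 14 members in the ends. Per list 62.1% ± 11.0 held a peak in PC3 DM and 47.2% ± 12.8 in COLO320 DM. At equal list length 9 were tested, of which CHL1, CNTN6 and ADARB2 were called more often in PC3 DM and 0 in COLO320 DM, with a median difference of 39.6 points. In the genome 6.47% of tested genes were called in PC3 DM and 6.84% in COLO320 DM. The call of ADARB2 was lost without any 1 of 23 libraries, and that of CHL1 on the lists as deposited. These genes are long (213 kb for CHL1 and 959 kb for CNTN4), and the share of lists with a peak was not adjusted for gene length. CNTN4, a contactin of neuronal contacts, had a peak in 16 of 16 PC3 DM and 13 of 18 COLO320 DM lists (Fisher exact test, adjusted p = 0.162). CACNA1C, a voltage-gated calcium channel gene on chromosome 12, had one in 10 and 9.

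The other lists had peaks less often, and 2 of them held a called gene. Of the SIRP genes of chromosome 20, 17.5% ± 14.4 held a peak per PC3 DM list and 1.11% ± 4.71 per COLO320 DM list at equal list length, and 1 of 2 tested, SIRPB1, was called. Of the 13 telomere and chromatin regulators, 31.2% ± 14.5 and 24.8% ± 14.1 held one in the lists as deposited, and 1 of 3 tested was called, MAD1L1, a gene of the spindle checkpoint. On the lists as deposited MAD1L1 had a peak in 15 lists of each line and was not called (Fisher exact test, adjusted p = 0.775). In the genome 13.3% of tested genes were called, and 1 of 2 and 1 of 3 show little beside that share. TERT, the catalytic subunit of telomerase, had a peak in 3 PC3 DM and 5 COLO320 DM lists as deposited. The remaining lists had 0 to 2 genes that could be tested, none of them in the alpha-globin and housekeeping lists, and 0 calls. Their shares in PC3 DM and COLO320 DM were 22.9% and 17.3% for imprinted genes, 10.9% and 12.5% for mucin genes, 12.5% and 12.0% for beta-defensin genes, and 11.5% and 8.80% for homeodomain, forkhead and DMRT factors. They were 3.47% and 11.7% for the tryptase cluster, 6.25% and 13.0% for serpin genes, 8.75% and 3.33% for IFITM genes, 7.03% and 3.47% for housekeeping genes, and 5.68% and 1.01% for the alpha-globin cluster and its neighbours. Among imprinted genes KCNQ1, a potassium channel gene, had a peak in the most lists, 16 in PC3 DM and 17 in COLO320 DM as deposited.

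Between the lines at equal list length, 110 of the 819 genes could be tested (at least 3 lists with and 3 without a peak), and 10 were called more often in PC3 DM and 10 more often in COLO320 DM. That is 9.09% in each direction, where 6.47% and 6.84% of all 4711 genes tested in the genome were called, 13.3% in either direction (Fisher exact tests, adjusted over 4711). The median difference was -7.29 points over the tested genes of the ends and 6.94 points over the other tested genes. Only presence was compared, at an adjusted p under 0.05.

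Genes called more often in PC3 DM were led, by difference in the share of lists, by the 2 adhesion genes of chromosome 3. CNTN6 (chr3:1093024-1404217) had a peak in 15 of 16 PC3 DM and 2 of 18 COLO320 DM lists (Fisher exact test, adjusted p = 0.000143). In the lists as deposited its covered length was 408, 3208 and 12898 bp (lowest, median, highest) in PC3 DM and 0, 237 and 2829 bp in COLO320 DM, with the ranges overlapping. CHL1 (chr3:196763-409417), close homologue of the adhesion molecule L1, had a peak in 14 and 4 lists (Fisher exact test, adjusted p = 0.00384), covering 2254 ± 1901 bp and 452 ± 617 bp. PRKCZ on chromosome 1, an atypical protein kinase C gene, had one in 10 and 0 (adjusted p = 0.00167, Fisher exact test). The other 7 were LOC124900647 (12 and 3 lists), MAD1L1 (15 and 7), TMC2 (14 and 6), a gene of the hair cell mechanotransduction channel, GMDS (12 and 4), which acts in fucose synthesis, CSNK2A1 (8 and 0), a catalytic subunit of casein kinase 2, SIRPB1 (8 and 1) and ADARB2 (8 and 1), a brain relative of the RNA-editing enzymes.

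Of the genes called more often in COLO320 DM, LOC124900839 (chr4:2009006-2041914) separated the lines completely, being marked in every one of the 18 COLO320 DM lists and in 0 of the 16 PC3 DM lists (Fisher exact test, adjusted p = 3.05e-07). In the lists as deposited it held a peak in PC3 DM lists too, with up to 325 bp covered there, against 257 to 1228 bp in COLO320 DM. ERC1 on chromosome 12, which encodes a scaffold of vesicle release sites, had one in 18 COLO320 DM and 4 PC3 DM lists (Fisher exact test, adjusted p = 0.000186). POLN had one in 18 and 6 (Fisher exact test, adjusted p = 0.00167). Its covered length was 1463 ± 740 bp in COLO320 DM and 679 ± 229 bp in PC3 DM. The others were B4GALNT3 (15 and 2), a glycosyltransferase gene, LMF1 (16 and 4), a lipase maturation factor, ERICH1 (12 and 1), FAM20C (11 and 1), a kinase of the secretory pathway, SLC43A2 (10 and 0), an amino acid transporter, NINJ2 (10 and 1) and CIMAP1A (9 and 0). LMF1 overlaps LOC124900586, so the peaks of the shared part count for both.

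**Figure D3:**
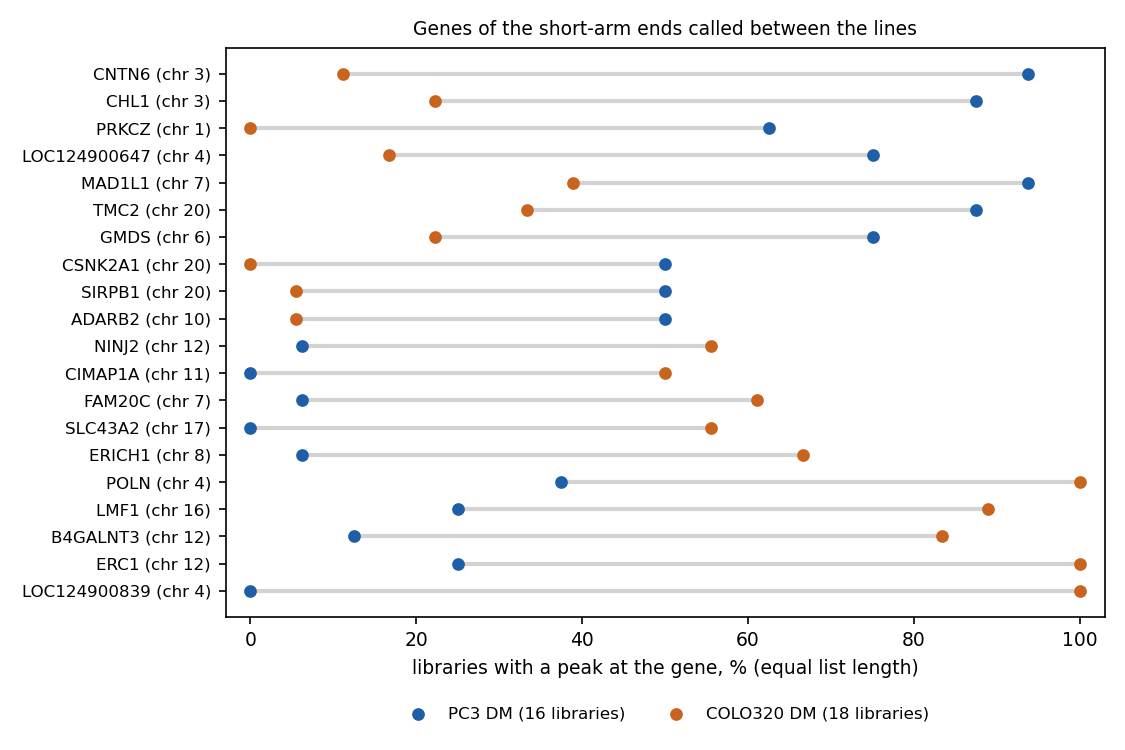
Percentage of libraries with a peak at each protein-coding gene of the ends that was called between the lines, at equal list length, for 16 PC3 DM and 18 COLO320 DM libraries. CNTN6 stands at 15 of 16 against 2 of 18, and LOC124900839 at 0 of 16 against 18 of 18.

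Calls of single genes moved with the list length. In the lists as deposited 244 genes of the ends were tested, and 10 were again called in each direction, 4.10%. In the genome 5.74% were called in PC3 DM and 1.25% in COLO320 DM, 6.99% in either direction. Of the 20 genes called at equal list length, 8 were called there too and 11 were tested and not called, CHL1, ERC1 and LMF1 among them. POLN, with a peak in every list, could not be tested, and CNTN6, LOC124900839, POLN and FAM20C were called in every alternative in which they could be tested. SIRPB1 was lost without any 1 of 22 libraries. With the combination left out, 6 genes were called in PC3 DM, and with an overlap of at least 500 bp 4 were.

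In 5 kb bins the balance was towards COLO320 DM, as in the whole genome. Of 421 bins tested in the ends, 12 (2.85%) were called more often in PC3 DM and 52 (12.4%) more often in COLO320 DM, where the genome had 3.61% and 15.2% of 26762, 18.8% in either direction. Of the 52, 23 lay on chromosome 4, and of the 12, 6 lay on chromosome 20. The strongest COLO320 DM bins were chr12:1390001-1395000 in ERC1 and chr4:2025001-2030000 in LOC124900839, each with a peak in 18 of 18 against 0 of 16 lists. The next were chr18:510001-515000 in the non-coding gene LINC01925 (16 against 0), chr11:2330001-2335000 in CD81-AS1 (18 against 2) and chr16:940001-945000 in LMF1 (15 against 0). Covered length in the ERC1 bin was 1086 ± 310 bp in COLO320 DM, and 1 PC3 DM list as deposited had a peak there. The strongest PC3 DM bins were chr1:2990001-2995000 and chr20:340001-345000 (11 of 16 against 0 of 18 each), chr20:2625001-2630000 in TMC2 (12 against 1), and chr1:2095001-2100000 in PRKCZ and chr20:1750001-1755000 (9 against 0 each). Bins were tested by Fisher exact tests adjusted over 26762, and with an overlap of at least 500 bp 3 and 25 of 113 tested in the ends were called, 2.65% and 22.1%.

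Perturbed and vector libraries differed in COLO320 DM in the pooled ratio of end to rest, and not detectably in PC3 DM. In COLO320 DM at equal list length the 3 vector libraries stood at -0.63, -0.59 and -0.41, and the 15 perturbed ones at -0.50, -0.31 and -0.08 (lowest, median, highest), so that the groups overlapped at 1 vector library. The ends of perturbed libraries were thus nearer to the density of the rest. The means were -0.54 ± 0.12 and -0.29 ± 0.14, a difference of 0.26 (exact permutation test, p = 0.00735, adjusted p = 0.0147 over 2 tests). The perturbed mean was higher at 15 of the 17 ends, led by chromosomes 10 (0.69), 9 (0.56) and 3 (0.55), and lower at chromosomes 12 (-0.22) and 20 (-0.15). The call rests on few libraries: without vector replicate 1 the difference was 0.23 and without vector replicate 2 it was 0.21, both with an exact permutation p of 0.0588, and without chromosome 4 it was 0.23.

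Means by plasmid in COLO320 DM were -0.27 for ecSE1, -0.32 for ecSE2, -0.28 for ecSE3, -0.32 for ecSE4 and -0.24 for the combination (n = 3 each, no test). In PC3 DM the 2 vector libraries stood at -0.24 and -0.05 and the 14 perturbed ones at -0.46, -0.23 and 0.03 (lowest, median, highest), so the vector lay within the range of the others. The difference was -0.08 (exact permutation test, p = 0.558, smallest possible 0.00833), with 8 ends higher and 9 lower, and turned to 0.02 without vector replicate 1. Plasmid means in PC3 DM were -0.33 for ecSE1, -0.26 for ecSE2, -0.07 for ecSE6, -0.37 for ecSE7 and -0.13 for the combination.

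**Figure D4:**
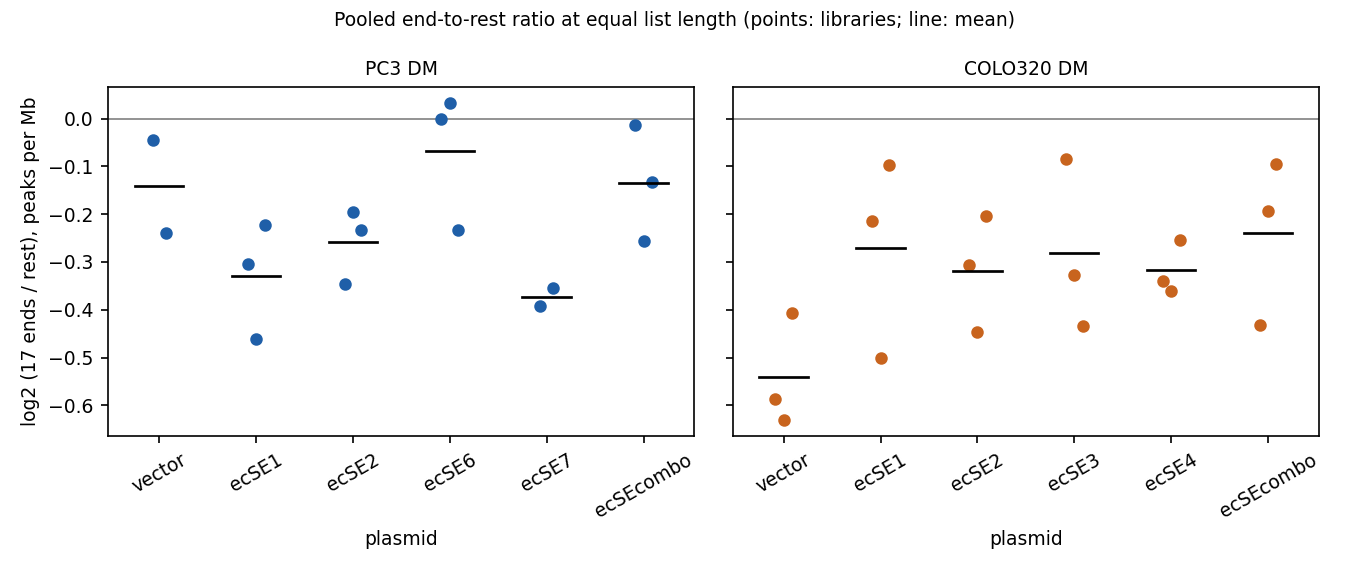
Pooled log2 ratio of end to rest at equal list length by plasmid, PC3 DM and COLO320 DM; points are libraries and lines group means of 2 or 3. The 3 COLO320 DM vector libraries lie between -0.63 and -0.41, and the 2 PC3 DM vector libraries at -0.24 and -0.05.

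For single genes a call between perturbed and vector libraries was hardly within reach of the design. Of 162 genes of the ends tested in PC3 DM and 130 in COLO320 DM, 0 were called, where 0.0% of the 7812 and 4621 genes tested in the genome were (Fisher exact tests, adjusted). At an unadjusted p under 0.05 there were 0 in PC3 DM and 3 in COLO320 DM. Within the gene body and 2 kb on each side, all 3 had a peak in perturbed libraries alone. They were UVSSA, ELFN1 and LARP4B, named after their values were seen. UVSSA and ELFN1 had a peak in 13 of 15 perturbed and 0 of 3 vector lists each, and LARP4B in 11 and 0. The 5 kb bin chr4:1395001-1400000, assigned to UVSSA, had a peak in 17 COLO320 DM lists as deposited. That is more than the 15 perturbed lists, so vector lists held a peak there too. The split at UVSSA therefore depends on the window used. Over the genome 0.294% of tested genes had such a p in PC3 DM and 1.06% in COLO320 DM. The smallest p the design allows was 0.00833 in PC3 DM and 0.00123 in COLO320 DM, so that 1302 and 114 genes would have to reach it for any to pass the adjustment.

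The local background that the peak caller estimated around each peak stood farthest above that of the rest of the chromosome on chromosome 4 and, in PC3 DM, on chromosome 3. It was recovered from the fold and p-value of 99.8% to 100% of peaks per list, and is given relative to the lowest value of the library. On the end of chromosome 3 its median was 4.52, 5.66 and 6.81 (lowest, median and highest PC3 DM library) against a mean of 1.46 ± 0.36 in the rest of that chromosome. In COLO320 DM it was 1.00, 1.24 and 2.00 there, against 2.47 ± 0.56 in the rest, so the lines did not overlap. On the end of chromosome 4 PC3 DM had 14.1 ± 5.79 and COLO320 DM had 15.7 ± 3.05, against 1.33 ± 0.28 and 2.22 ± 0.51 in the rest of that chromosome. Over all ends PC3 DM had 2.49 ± 0.96 and COLO320 DM had 3.34 ± 0.96, against 1.49 ± 0.33 and 2.34 ± 0.57. This background rises with the number of copies of the DNA and with a broad mark, and these cannot be told apart here. On chromosome 3 of PC3 DM it moves with the density of peaks and with the peaks of CHL1 and CNTN6, and its part in those results was not tested.

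**Figure D5:**
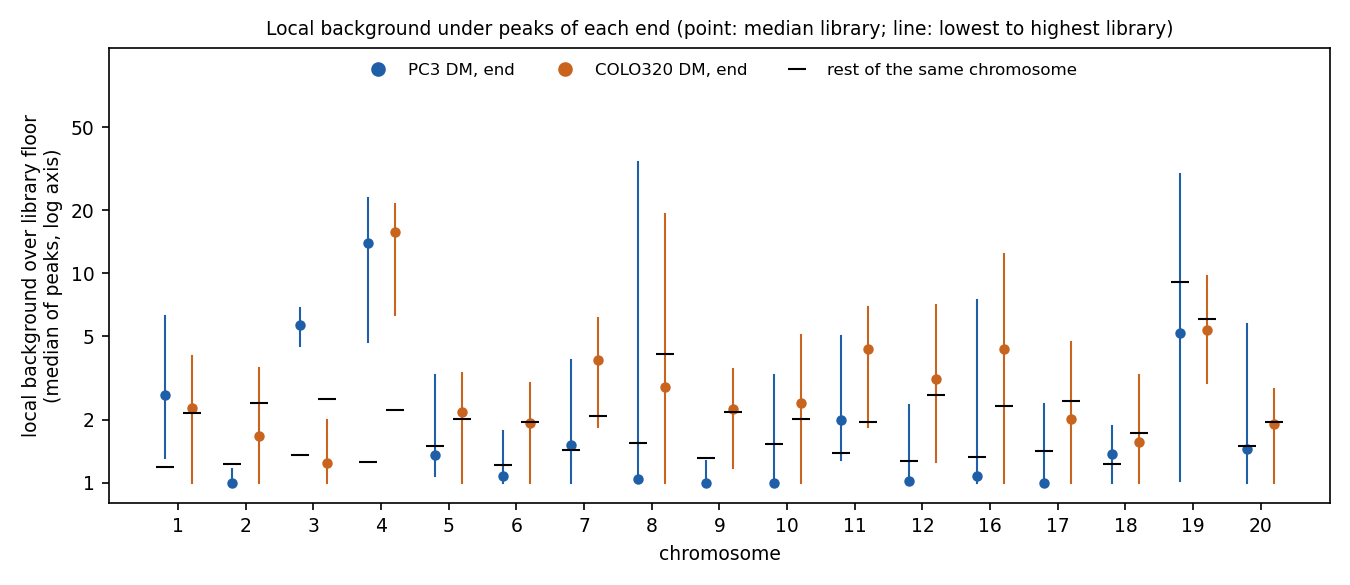
Local background under the peaks of each end relative to the lowest of the library, on a log axis, by chromosome; points are the median library, lines the lowest to highest library, and dashes the rest of the same chromosome. PC3 DM stands at 5.66 and COLO320 DM at 1.24 on chromosome 3, and both are high on chromosome 4.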

How the data were processed

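The data were 34 deposited peak lists on hg38, 1 per library. The submitters' processing notes name MACS2 2.2.7.1, bedtools, SAMtools, Bowtie2 2.3.5 and Trim Galore 0.6.6 without their roles. By their names the deposited lists were filtered at an FDR of 0.001 with blacklisted regions removed. The lowest deposited -log10 q-value was 3.00. The sources used here do not give whether a control library entered. For each peak the authors deposited a score, a fold (the ratio of summit height to local background), -log10 of the p-value and -log10 of the q-value. These are the authors' own values and served only to order and filter the peaks of 1 list, and to recover the local background by solving the Poisson p-value for whole fragment counts within a tolerance of 0.0005 in -log10 p. The score was not used. Read totals were not used, so no counting interval is given. A peak list records where the signal passed a threshold, so fewer peaks can mean less of the mark, less depth or a higher background.

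Groups and replicate numbers came from the titles. Chromosome length was the highest peak end over all lists. A further 12 peaks on the Y chromosome were left out. Log2 ratios of single ends used an offset of 0.5 peaks. Sign-flip tests were enumerated exactly in PC3 DM and drew 100000 resamples in COLO320 DM. Tests between lines drew 100000 resamples, and tests of perturbed against vector libraries were exact, all two-sided. Presence of a peak in protein-coding genes (RefSeq, GRCh38.p14, body and 2 kb on each side) and in 5 kb bins was compared genome-wide by Fisher exact tests with Benjamini-Hochberg adjustment at 0.05. Exon positions were not used here. The main tests did not pair libraries of different groups by replicate number.

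Members, gene lists and tests were chosen with earlier results of these data known. Named genes were up to 12 called per direction, the 10 with a peak in most lists and the 2 members with most lists from each gene list. Named bins were the 12 with most lists and the 5 called per direction with the smallest p. Other genes named inside a list were chosen after their values were seen. The tests were tested on simulated data. With a planted difference of 40 points between the lines, 12 of 100 genes and 5 of 100 bins were recovered. At 70 points these were 84 and 62. The simulation held 100 planted differences of each size among 5002 tested genes and 35019 tested bins. In the real data 13.3% of tested genes and 18.8% of tested bins were called, so the adjustment was less strict there. The recovered shares therefore need not hold for the real tests. A gene or bin without a call can therefore still differ between the lines. The scripts used scipy 1.17.1, pandas 2.3.3, numpy 2.4.6 and matplotlib 3.10.9 under Python 3.11.15.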

Additional observations from a re-analysis of the deposited data

Results flagged for a closer look

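The effect of perturbation on the pooled ratio of end to rest was compared between the lines at equal list length. Perturbed minus vector was -0.08 in PC3 DM (14 and 2 libraries) and 0.26 in COLO320 DM (15 and 3 libraries), a difference of -0.335 on the log2 scale (permutation of the vector labels within lines, p = 0.0234). The permutation assumes no effect of perturbation in either line, so an effect in COLO320 DM alone could give this p. It therefore does not show that the effects differ between the lines, whose plasmid groups and lipofectamine also differed. The result rests on 5 vector libraries in all, 1 of which, PC3 DM vector replicate 1, is among the 2 of lowest maximum fold.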

How the results depend on the processing

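Over the comparisons, 396 of 447 alternative values kept their direction and their side of the threshold, and over single ends, genes and bins 2030 of 2146 did. The cause of a change was not tested, except where fewer libraries or peaks entered by construction. Leaving out chromosome 3, chromosome 4, the 2 longest lists or the 2 libraries of lowest maximum fold was chosen after seeing the data.

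The pooled ratio was -0.389 to -0.361 in PC3 DM and -0.389 to -0.358 in COLO320 DM without single libraries, and 0.172 in COLO320 DM with ends of 1 Mb. Replicate numbers were not taken to pair libraries in the main tests. Correlations of same-numbered libraries were over 0.1 in 6 of 36 pairs in PC3 DM (median -0.068, against 0.041 for other pairs). In COLO320 DM they were over 0.1 in 22 of 45 (median 0.077, against -0.084). Whether the numbers pair libraries in COLO320 DM is not settled by these values. With the replicate block the ratios were -0.384 and -0.375, and 3 numbers cannot reach the threshold (exact permutation p = 0.25 at the smallest). 

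The pooled line difference of 0.116 was 0.0834 without chromosome 8, 0.0624 with -log10 q of at least 5, 0.000876 on the lists as deposited, 0.0536 with the best 5000 and 0.292 with the best 1000 peaks, 0.116 without the combination, 0.0929 without the 2 longest lists and 0.0892 without the 2 libraries of lowest maximum fold, none past the threshold. In vector libraries alone it was 0.399, where the smallest possible exact permutation p is 0.1. It reversed to -0.462 with ends of 1 Mb and to -0.345 without chromosome 3, and ran from 0.0985 to 0.133 without single libraries (permutation p from 0.0172 to 0.0674). The difference of perturbed and vector libraries ran from -0.177 to 0.0166 in PC3 DM and from 0.211 to 0.323 in COLO320 DM without single libraries. In COLO320 DM it was 0.182 with ends of 1 Mb and 0.228 without chromosome 4, neither past the threshold.

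Single ends reversed at chromosome 5 (0.170 on the lists as deposited, 0.0811 by covered length), chromosome 8 (-0.0287 as deposited, -0.507 with ends of 1 Mb), chromosome 1 (-0.293 with ends of 1 Mb) and chromosome 18 (-1.38 with ends of 1 Mb). With ends of 1 Mb 1 end was called higher in PC3 DM. Without single libraries 4 and 9 ends were called throughout. The PC3 DM ratio of the first to the last Mb was -0.343 without chromosome 4, past the threshold, and 0.300 at equal list length, past it too.

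For PC3 DM peaks the length difference was -3.31 bp without chromosome 3 and -5.03 bp without chromosome 4, both past the threshold, and 0.594 bp at equal list length. The fold difference was -0.0544, 0.0271 and -0.229 in these settings, the first and the last past it. The rank difference lost its call without chromosome 3 (-1.91 points) and at equal list length (-1.69 points). For COLO320 DM peaks without chromosome 4 these were -10.8 bp (past the threshold), -0.0923 (no longer past it) and 3.07 points (reversed).

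Without single libraries 8 to 10 genes were called in PC3 DM and 9 to 11 in COLO320 DM, and 9 to 13 and 46 to 56 bins. With an overlap of at least 500 bp 4 genes were called in PC3 DM and 3 and 25 of 113 bins tested, and without the combination 6 genes in PC3 DM. Recurrent sites were 2.37% of bins at 10 kb, 0.485% with at least 26 of 34 lists and 2.46% at equal list length, where the rest of the same chromosomes had 2.88%, 0.416% and 2.46%. Depth is unknown, so a missing peak does not show that the mark is absent.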

Other observations

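Over the 17 ends the density of protein-coding genes and the mean log2 ratio of end to rest had a Pearson r of -0.47 in PC3 DM and -0.02 in COLO320 DM, as a description over ends that share their libraries. The mean log2 ratios of the lines had an r of 0.41 over the same ends. Within a line, the ratio showed no detectable relation to list length: Pearson r was -0.066 in PC3 DM (n = 16) and -0.15 in COLO320 DM (n = 18), and Spearman rho -0.118 and 0.148 (permutation tests, adjusted p = 0.808 for all 4). Without the 2 libraries farthest from the median list length r was -0.42 and 0.22.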
